A study of Drosophila melanogaster with 6 samples.

Results

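The JAK/STAT pathway carries a signal from secreted cytokines to the nucleus. In Drosophila the unpaired ligands bind the receptor Domeless, the kinase Hopscotch phosphorylates the transcription factor Stat92E, and Stat92E then binds its target genes. SOCS proteins and the phosphatase Ptp61F dampen the signal, and one of these inhibitors, Socs36E, is itself a well known target of Stat92E. In wing discs the pathway is known for its activity in the hinge and for its part in the response to wounding. The 10 genes described here are the ligands os, upd2 and upd3, the receptor gene dome, the kinase gene hop, the transcription factor gene Stat92E, and the inhibitor genes Socs36E, Socs16D, Socs44A and Ptp61F. They were chosen by symbol, with os standing for the founding unpaired ligand, and all 10 were found among the 14239 genes of the expression table.

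Wing pouch cells marked by nub-GFP, a transposon insertion that places GFP under the control of the nubbin locus, were sorted from wing imaginal discs of 2 groups with 3 samples each. The Ablated group was nub-GFP/+; rn-Gal4, GAL80ts, UAS-rpr/+, in which rotund-driven Gal4 switched on the cell death gene reaper in the wing pouch during 24 h at 30 °C. The Control group was nub-GFP/+; rn-Gal4, GAL80ts/+, went through the same shift and lacked UAS-rpr. Both groups were otherwise reared at 18 °C, were shifted early in the last larval instar, carried nub-GFP and the rn-Gal4 driver, and were collected after 24 h of recovery. Each sample pooled the sorted cells of many discs, with more discs per sample in the Ablated group.

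Expression is given as FPKM, a fragment count scaled by transcript length and by the size of the library, which allows levels of different genes to be compared. The table holds 1 FPKM per gene and group, the authors' value over the replicates of that group. Values of single samples were not analysed here, so no spread between replicates and no test is given for any gene. The number of reads behind the value of each gene is unknown. A difference is given as the log2 ratio of Ablated over Control FPKM, with no pseudocount. A gene is counted as past the threshold when its log2 ratio was at least 1.3 or at most -1.3 and its mean FPKM over both groups was at least 1.

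The 3 ligand genes and Socs36E stood out among the 10 genes by the size of their ratio, while the receptor, the kinase, the transcription factor and the remaining inhibitors had ratios close to 1. Counted by the threshold, os, upd3 and Socs36E were higher in the Ablated group and no member was lower. Of the 8437 genes whose mean FPKM reached 1, 4.49% were past the threshold in the higher direction and 2.13% in the lower direction. The median log2 ratio of the 10 members was 0.37, against -0.04 for all 8437 genes. Of the 10 members, 9 had a log2 ratio above 0, as had 47.1% of all genes. All 10 members had a mean FPKM of at least 1, so none was left out. The mean of upd3, 1.07 FPKM, reached 1 only through the Ablated group, as its Control value was 0.44 FPKM.

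**Figure D1:**
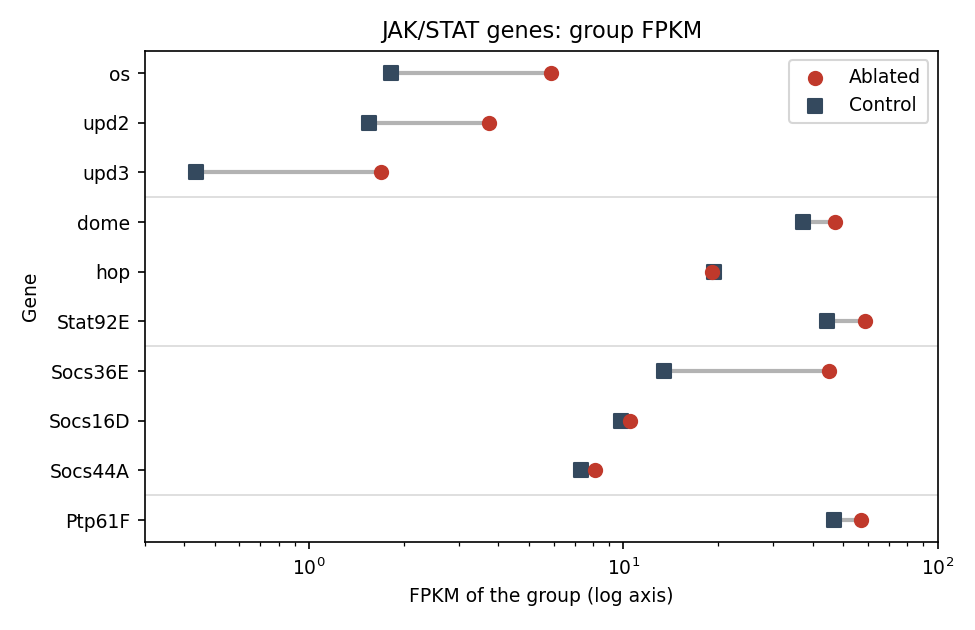
FPKM of the 10 JAK/STAT genes in the Ablated group (circles) and the Control group (squares), on a log axis, with a grey line joining the values of a gene and pale lines separating ligands, signal transducers, SOCS genes and the phosphatase. The 3 ligands and Socs36E have the widest gaps, and the circle and square of hop overlap at 19.2 and 19.4 FPKM.

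The ligand genes were the lowest expressed members in both groups. The gene os encodes Unpaired, the ligand first found for this pathway, annotated today as upd1 (FBgn0004956). It had 5.87 FPKM in the Ablated group, against 1.82 FPKM in the Control group, a 3.22-fold difference and a log2 ratio of 1.69. The gene upd2 encodes a related ligand that also acts as a signal from the fat body. It had 3.73 FPKM in the Ablated group and 1.55 FPKM in the Control group, and its log2 ratio of 1.27 was just under the threshold. The gene upd3 encodes the ligand best known for its induction by infection and tissue damage, in blood cells and in the gut. It had 1.70 FPKM in the Ablated group and 0.44 FPKM in the Control group, a 3.88-fold difference and a log2 ratio of 1.96, the highest of the 10 members.

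The order of the ligands depended on the quantity. By log2 ratio it was upd3, os, upd2, whereas by the difference in FPKM it was os (4.05 FPKM more in the Ablated group), upd2 (2.18 more) and upd3 (1.26 more). With no replicate values, neighbours in either order cannot be told apart from ties. Summed over the 3 genes, ligand expression was 11.3 FPKM in the Ablated group and 3.81 FPKM in the Control group, a 2.97-fold difference. The gene os made up 51.9% of this sum in the Ablated group and 47.9% in the Control group, upd2 made up 33.0% in the Ablated group and 40.6% in the Control group, and upd3 made up 15.0% in the Ablated group and 11.5% in the Control group. By level the values ran os, upd2, upd3 in both groups, and neighbours in this order cannot be told apart from ties either.

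Large ratios were more frequent among genes expressed at low levels. Of the 3002 genes in the range from 1 to 10 FPKM (mean of both groups), the range that holds the 3 ligands and Socs44A, 9.83% were past the threshold in the higher direction and 2.86% in the lower direction, and their median log2 ratio was 0.29. In this range 5.80% of genes had a log2 ratio at least as high as that of os, 4.23% one at least as high as that of upd3, and 10.6% one at least as high as that of upd2. With 1 FPKM added to both groups, which shrinks the ratios of low genes, the log2 ratios were 1.28 for os, 0.91 for upd3 and 0.89 for upd2, all under the threshold.

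**Figure D2:**
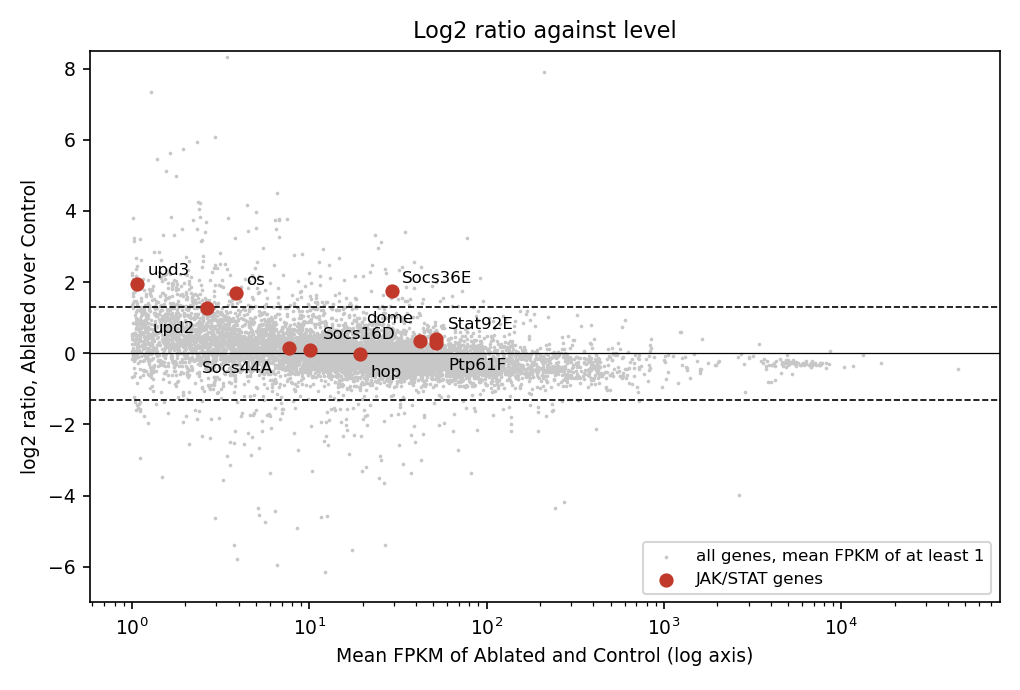
Log2 ratio of Ablated over Control FPKM against the mean FPKM of both groups (log axis) for all genes whose mean FPKM reached 1 and whose values were above 0 in both groups (grey points) and for the 10 JAK/STAT genes (labelled points). Dashed lines mark 1.3 and -1.3. Low genes spread more widely, and Socs36E, at a mean of 29.3 FPKM and a log2 ratio of 1.75, lies above most genes of its level.

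The ligand genes lie close together on the X chromosome. In build 5 of the genome, counted from 1, upd2 spans 18135381 to 18137038, upd3 spans 18171266 to 18178632 and os spans 18199377 to 18203021. The whole stretch is 67.6 kb long, with 34.2 kb between upd2 and upd3 and 20.7 kb between upd3 and os. None of the 3 ligand genes overlaps another gene of the table. In the BDGP6 annotation upd3 is transcribed from the opposite strand to upd2 and upd1, and the 3 genes encode proteins of similar length, with 413 amino acids for upd1, 406 for upd2 and 401 for upd3.

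Within 50 kb of a ligand gene the table lists 8 other genes, and 2 of them had a mean FPKM of at least 1. The uncharacterized gene CG6023, 5.14 kb from os, had 3.91 FPKM in the Ablated group and 2.32 FPKM in the Control group, a log2 ratio of 0.75. Him, an inhibitor of muscle differentiation that marks the muscle precursors of the wing disc, lies 30.6 kb from upd2. It had 12.6 FPKM in the Ablated group and 0.94 FPKM in the Control group, a log2 ratio of 3.75. The single gene between upd2 and os other than upd3, CG15059, was at 0.226 FPKM in the Ablated group and listed at 0 in the Control group. The other neighbours were at 0.187 FPKM or less in the Ablated group and at 0.00987 FPKM or less in the Control group.

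**Figure D3:**
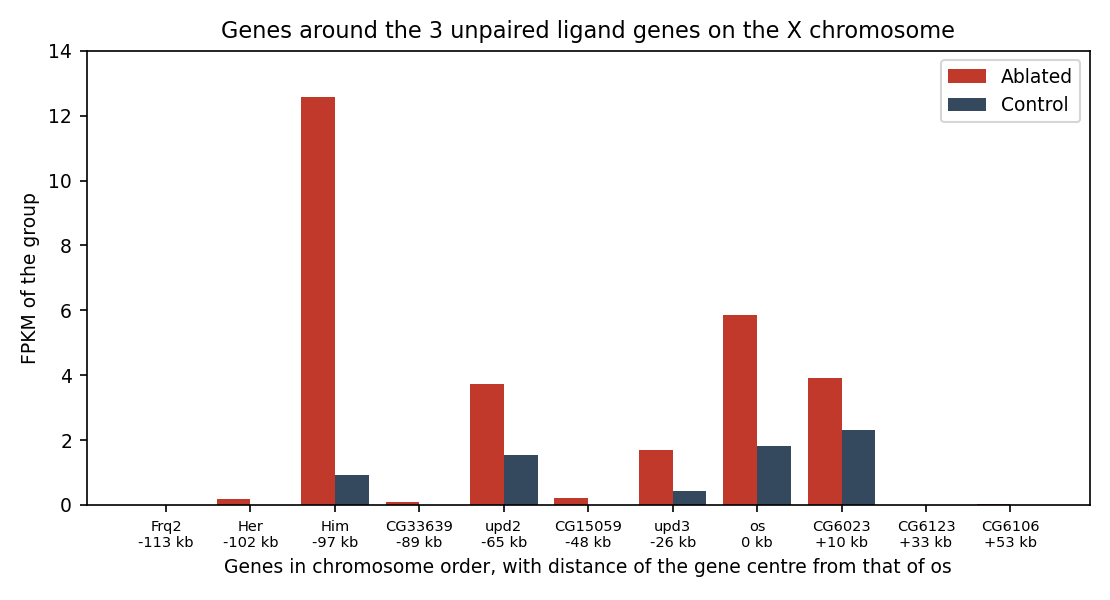
FPKM in the Ablated group (red bars) and the Control group (dark bars) of every gene whose locus lies within 50 kb of os, upd2 or upd3, in chromosome order, with the distance of each gene's centre from that of os. The ligands, Him and CG6023 have visible bars, and the rest of the genes lie at or near 0.

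The genes that receive and transmit the signal were expressed well above the ligands and differed little between the groups. The gene dome encodes the receptor, a transmembrane protein related to vertebrate interleukin-6 type receptors. It had 47.2 FPKM in the Ablated group and 37.4 FPKM in the Control group, a log2 ratio of 0.34. The gene hop encodes the only Janus kinase of the fly. It had 19.2 FPKM in the Ablated group and 19.4 FPKM in the Control group, a log2 ratio of -0.02, which turned to 0.02 when all ratios were centred on the median of all genes. The gene Stat92E encodes the only STAT protein of the fly. It had 58.6 FPKM in the Ablated group and 44.5 FPKM in the Control group, a log2 ratio of 0.40.

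None of these 3 genes was past the threshold. In the range from 10 to 100 FPKM, which holds 4497 genes including these 3, Socs36E, Socs16D and Ptp61F, 1.85% of genes were past the threshold in the higher direction and 1.62% in the lower direction, and the median log2 ratio was -0.12. A log2 ratio at least as high as that of Stat92E was found in 11.4% of the genes in this range, one at least as high as that of dome in 13.9%, and one at least as high as that of hop in 39.5%. Summed, dome, hop and Stat92E had 125 FPKM in the Ablated group and 101 FPKM in the Control group, a 1.23-fold difference. The FPKM of dome was 4.18 times that of the summed ligands in the Ablated group and 9.81 times in the Control group.

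Some of these values pool products with different functions or come from shared loci. The BDGP6 annotation lists 11 Stat92E transcripts that encode proteins of 628 to 818 amino acids, and a short form of Stat92E is known to block signaling, but the table gives 1 value for the whole gene. The locus of hop (chromosome X, 11253270 to 11262130) is shared with CG11750, which had 50.9 FPKM in the Ablated group and 96.0 FPKM in the Control group. A shared locus is listed with the same span for each of its genes, so the span is not that of hop alone. The methods do not say whether strand was used in counting. This leaves the values of hop and of other members that share a locus uncertain. The loci of dome (chromosome X, 19570090 to 19577549) and Stat92E (chromosome 3R, 16361405 to 16378034) overlap no other gene of the table.

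Among the inhibitor genes counted as members, Socs36E was the exception. Socs36E encodes a SOCS protein that restrains the pathway and is commonly read as a reporter of Stat92E activity. It had 45.1 FPKM in the Ablated group and 13.4 FPKM in the Control group, a 3.36-fold difference and a log2 ratio of 1.75. In the range from 10 to 100 FPKM, 37 genes, or 0.823%, had a log2 ratio at least as high. The log2 ratio of Socs36E was 1.68 with 1 FPKM added to both groups, and its locus (chromosome 2L, 18138668 to 18152410) overlaps no other gene of the table. Its level exceeded that of 77.1% of the 8437 genes in the Ablated group and of 43.4% in the Control group.

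The other inhibitor genes among the members differed much less. Socs16D, a less studied family member, had 10.5 FPKM in the Ablated group and 9.80 FPKM in the Control group, a log2 ratio of 0.10. Socs44A, which has also been linked to EGF receptor signaling, had 8.15 FPKM in the Ablated group and 7.34 FPKM in the Control group. Its log2 ratio of 0.15 turned to -0.14 when ratios were centred on genes of similar level, and it shares its locus (chromosome 2R, 4015136 to 4018837) with CG42516. Within its range of 1 to 10 FPKM, 60.5% of genes had a log2 ratio at least as high.

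Ptp61F encodes a tyrosine phosphatase that acts on Hopscotch and Stat92E, with a nuclear and a cytoplasmic form. It had 57.0 FPKM in the Ablated group and 46.8 FPKM in the Control group, a log2 ratio of 0.28. Ptp61F is listed under a locus (chromosome 3L, 1342490 to 1424979) that it shares with 6 other genes, so this span is not that of Ptp61F alone. The highest of these 6, the gene listed as 312, had 5.22 FPKM in the Ablated group and 4.78 FPKM in the Control group. In the BDGP6 annotation Ptp61F has 5 transcripts that encode proteins of 431 to 548 amino acids, and their separate levels were not analysed here.

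The balance among the inhibitors differed between the groups. Of the summed FPKM of the 3 SOCS genes, 63.7 in the Ablated group and 30.6 in the Control group, Socs36E made up 70.8% in the Ablated group and 43.9% in the Control group. Socs36E was expressed at 4.30 times the level of Socs16D in the Ablated group and at 1.37 times in the Control group. Against the transducers, Socs36E stood at 0.77 of the FPKM of Stat92E in the Ablated group and 0.30 in the Control group, and at 2.35 times the FPKM of hop in the Ablated group and 0.69 in the Control group. Ptp61F kept close to Stat92E, at 0.97 of its FPKM in the Ablated group and 1.05 in the Control group.

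Further genes that act on the pathway were described from a list of 18 known regulators, all of which were found in the table. Of the 17 whose mean FPKM reached 1, 2 were past the threshold in the higher direction and none in the lower direction, beside 4.49% and 2.13% of all genes, and their median log2 ratio was -0.13. These 2 genes were apt and ken. The gene apt encodes a nuclear protein that restrains STAT activity in border cells of the ovary. It had 7.82 FPKM in the Ablated group and 1.70 FPKM in the Control group, a log2 ratio of 2.20. Its locus also holds another gene. The gene ken encodes a repressor related to mammalian BCL6 that limits a subset of Stat92E targets, and it had 43.3 FPKM in the Ablated group and 14.8 FPKM in the Control group, a log2 ratio of 1.55.

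The 3 highest expressed regulators differed little. The SUMO gene smt3 had 1425 FPKM in the Ablated group and 1652 FPKM in the Control group, a log2 ratio of -0.21. The gene for heterochromatin protein HP1 had a log2 ratio of -0.13, and lwr, which encodes the SUMO-conjugating enzyme, had a log2 ratio of -0.38. Components of the ubiquitin ligase that SOCS proteins recruit had log2 ratios between 0.07 for Cul5 and -0.50 for EloC, which were named after their values were seen. The gene et encodes a short receptor related to Domeless that antagonizes the pathway, and it was singled out after its values were seen. It lies 0.098 kb from dome, and had 1.44 FPKM in the Ablated group and 0.44 FPKM in the Control group. Its log2 ratio was 1.72 at a mean of 0.94 FPKM, too low to be counted, and 0.77 with 1 FPKM added to both groups.

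**Figure D4:**
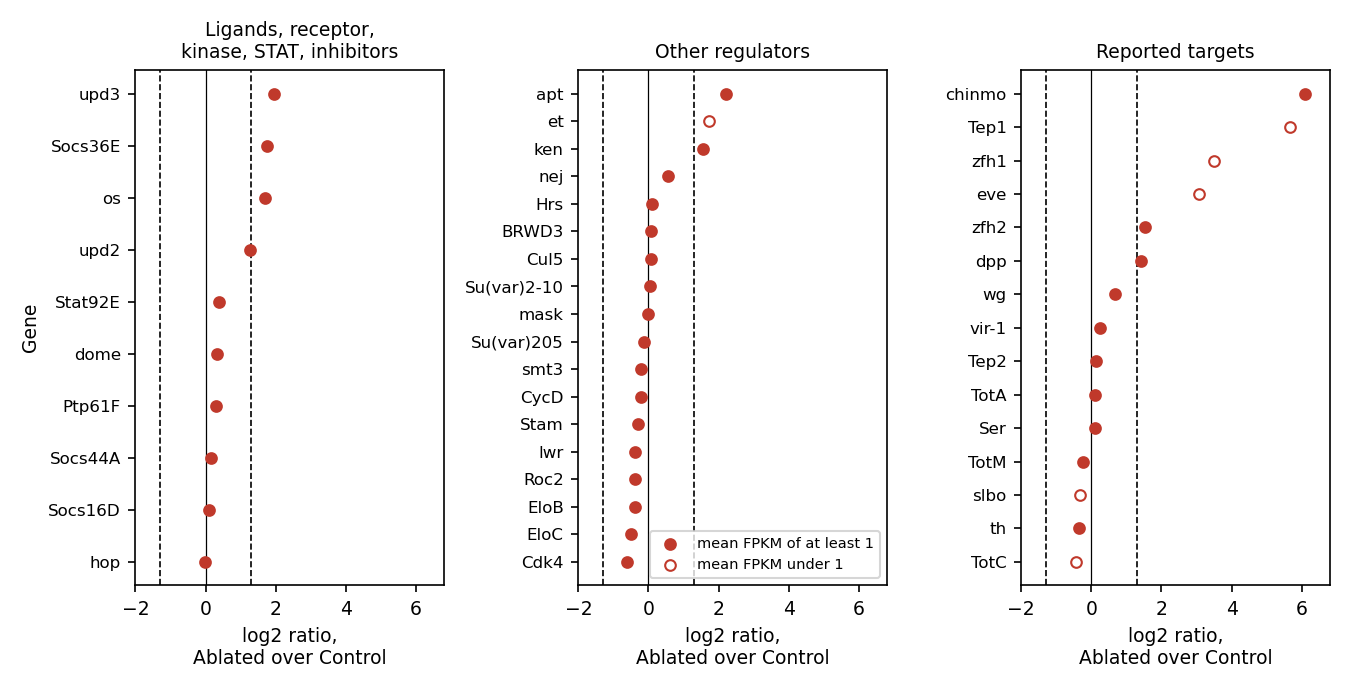
Log2 ratio of Ablated over Control FPKM for each of the 10 JAK/STAT genes, the 18 other regulators and the 15 reported targets, sorted within each panel. Filled points have a mean FPKM of at least 1 and open points a lower mean, and dashed lines mark 1.3 and -1.3. Most regulators lie near 0 with apt, et and ken to the right, and chinmo lies farthest right among the targets at 6.08.

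A list of 15 genes reported to respond to JAK/STAT signaling in some fly tissue, in either direction, was read in the same way. Its counts and median thus mix genes reported as induced with genes reported as repressed. Of the 10 whose mean FPKM reached 1, 3 were past the threshold in the higher direction and none in the lower direction, beside 4.49% and 2.13% of all genes, and their median log2 ratio was 0.19, beside -0.04 for all genes. The gene chinmo, a temporal identity factor that acts downstream of Stat92E in testis stem cells and the eye disc, had 5.82 FPKM in the Ablated group and 0.086 FPKM in the Control group, a log2 ratio of 6.08. Its mean reached 1 FPKM only through the Ablated group, in the range from 1 to 10 FPKM, where 9.83% of genes were past the threshold in the higher direction. The zinc finger and homeodomain gene zfh2, a hinge factor, had 65.5 FPKM in the Ablated group and 22.7 FPKM in the Control group, a log2 ratio of 1.53. The BMP ligand gene dpp had 18.2 FPKM in the Ablated group and 6.77 FPKM in the Control group, a log2 ratio of 1.43.

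The other 7 counted targets had log2 ratios from -0.34 to 0.67, none past the threshold. The Wnt ligand gene wg, which the pathway represses in the eye disc, had 26.2 FPKM in the Ablated group and 16.4 FPKM in the Control group, a log2 ratio of 0.67. The cell death inhibitor gene th, which encodes Diap1, was the most abundant of the list, with 193 FPKM in the Ablated group and 244 FPKM in the Control group, a log2 ratio of -0.34. The Notch ligand gene Ser had a log2 ratio of 0.09. The stress-induced gene TotA had 8.08 FPKM in the Ablated group and 7.47 FPKM in the Control group, a log2 ratio of 0.11. The thioester protein gene Tep2 had a log2 ratio of 0.13, vir-1, a gene induced by virus infection, had one of 0.25, and TotM, a relative of TotA, had one of -0.24. Of the 5 targets with a mean under 1 FPKM, zfh1 had 0.87 FPKM in the Ablated group and 0.077 FPKM in the Control group, a log2 ratio of 3.51. The segmentation gene eve and the thioester protein gene Tep1 had log2 ratios of 3.07 and 5.66, at 0.231 FPKM or less in the Ablated group and 0.028 FPKM or less in the Control group. The log2 ratios of slbo and TotC were -0.33 and -0.45. Besides th and Ser, the targets in this paragraph were named after their values were seen.

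The sorted cells differed between the groups in markers of cell identity, and in bulk samples fewer cells of a type and less RNA per cell cannot be told apart. Marker counts are read beside the 8437 genes whose mean FPKM reached 1, of which 47.1% were higher in the Ablated group. Genes in the range from 1 to 10 FPKM leaned to the Ablated side, with a median log2 ratio of 0.29. The gene nub, whose locus drives the GFP used for sorting, had 51.8 FPKM in the Ablated group and 89.9 FPKM in the Control group. The 7 wing pouch markers summed to 267 FPKM in the Ablated group and 373 FPKM in the Control group, with 6 of 7 lower in the Ablated group and none at 0 in either group. The 9 hinge and notum markers, among them zfh2, summed to 300.2 FPKM in the Ablated group and 251.5 FPKM in the Control group, with 6 of 9 higher in the Ablated group and none at 0. The list held ratios of both signs, with zfh2 past the threshold in the higher direction and Doc1 and Doc2 past it in the lower direction. Doc1 had 5.67 FPKM in the Ablated group and 45.5 FPKM in the Control group, a log2 ratio of -3.00, and Doc2 had 1.90 FPKM in the Ablated group and 18.8 FPKM in the Control group, a log2 ratio of -3.31. All 6 muscle precursor markers, among them Him, were higher in the Ablated group, and none was at 0. A mean of 1 FPKM was reached by 4 of them. Under 1 FPKM were 1 of the 6 in the Ablated group and 5 in the Control group. They summed to 34.8 FPKM in the Ablated group and 6.15 FPKM in the Control group, where Mef2 alone gave 4.41 FPKM. The part of these cells in the ratios of the 10 JAK/STAT genes was not tested.

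Hemocytes, the blood cells of the fly, are a known source of upd3, and their part in its level was not tested. Of 8 hemocyte markers, 4 were under 1 FPKM in the Ablated group and 6 in the Control group. In the Ablated group 7 of 8 were higher, as were 47.1% of the 8437 genes whose mean FPKM reached 1. Only 2 of the 8 markers reached that mean, and no such share is given for genes below it. Hml, a defining hemocyte gene, had 0.061 FPKM in the Ablated group and 0.013 FPKM in the Control group, and NimC1 had 0.127 FPKM in the Ablated group and was listed at 0 in the Control group. He, a hemocyte surface protein gene, had 1.10 FPKM in the Ablated group and 0.072 FPKM in the Control group, a log2 ratio of 3.93. The scavenger receptor gene Sr-CI had 1.296 FPKM in the Ablated group and 0.28 FPKM in the Control group, a log2 ratio of 2.20. The GATA factor gene srp had 1.48 FPKM in the Ablated group and 1.07 FPKM in the Control group. These levels lie beside 1.70 FPKM in the Ablated group and 0.44 FPKM in the Control group for upd3. The list summed to 24.4 FPKM in the Ablated group and 26.6 FPKM in the Control group, of which crq, another scavenger receptor gene, alone gave 20.0 FPKM in the Ablated group and 25.1 FPKM in the Control group. The 5 fat body markers were under 1 FPKM in both groups. The 5 tracheal markers found in the table summed to 848 FPKM in the Ablated group and 745 FPKM in the Control group, a sum carried mainly by verm, Gasp and serp. The tracheal factor gene trh had 3.64 FPKM in the Ablated group and 21.8 FPKM in the Control group, a log2 ratio of -2.58, and the FGF receptor gene btl had 3.33 FPKM in the Ablated group and 1.07 FPKM in the Control group, a log2 ratio of 1.64. The 3 peripodial markers summed to 45.6 FPKM in the Ablated group and 33.3 FPKM in the Control group. No fat body, tracheal or peripodial marker was at 0. The gene rpr had 55.2 FPKM in the Ablated group and 70.3 FPKM in the Control group. Its value, measured after the shift had ended, does not check the labels.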

How the data were processed

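Messenger RNA of GFP-positive cells was sequenced from 6 samples, 3 Ablated and 3 Control, with a stranded library kit. The authors trimmed the reads, aligned them with TopHat2 (version 0.6 in the submitters' processing notes) to the NCBI Drosophila melanogaster build 5 with its gene models, and estimated FPKM with Cufflinks (version 0.0.7 in the same notes), corrected for sequence bias and multiply mapped reads. The deposited FPKM came from Cuffdiff with geometric library normalization, as 1 value per group. The same table holds the authors' own fold changes, test statistics, p-values and q-values, which were not used, so no test was made.

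Log2 ratios were computed from the group FPKM for 14239 genes, of which 8437 had a mean FPKM of at least 1. Of these, 35 were listed at 0 in 1 group, 19 of them in Control and 16 in Ablated, and were counted as past the threshold. Some zeros may be failed estimates, as the housekeeping genes Ef1alpha48D and RpL15 stand at 0 in both groups. FPKM summed to 889990 in Ablated and 1081830 in Control. Locus starts in the table count from 0, judged from 1271 genes whose end minus start equals their release 6 length against 105 for a count from 1, and are printed counted from 1. Of 86 listed genes 85 matched, 8 by a synonym. Protein lengths and strands are from the BDGP6 annotation. Sequences were not analysed here.

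The members and gene lists were chosen with earlier results of these data known. Named were all members, list genes past the threshold or among the 3 highest of a list, and neighbours within 50 kb of a ligand with a mean FPKM of at least 1. The arithmetic was tested on simulated group values made from set log2 ratios, which the calculation returned. The reliability of the reported ratios was not tested by this. Calculations and plots used numpy 2.4.6, pandas 2.3.3 and matplotlib 3.10.9 under Python 3.11.15.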

Additional observations from a re-analysis of the deposited data

How the results depend on the processing

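With 1 value per group, no alternative that leaves out a sample could be run. No paired analysis was possible because the columns carry no replicate number. Socs36E was past the threshold under all 8 settings that gave it a log2 ratio, with a range of 1.68 to 1.87. The genes os and upd3 were past it in 6 of 7 and upd2 in 1 of 7. These counts include the main setting. Settings that only choose which genes are kept cannot change the log2 ratio of a gene, so they repeat its main value. Only added FPKM or centring could change it. The exception for os and upd3 was 1 FPKM added to both groups (1.28 and 0.91). The gene upd2 passed at 1.31 when centred on the all-gene median. Centred on genes of similar level, the log2 ratios were 0.98 for upd2, 1.40 for os and 1.67 for upd3. The number of members past the threshold in the higher direction was 1 of 10 with 1 FPKM added and 4 of 10 with a threshold of 1.0. It was 1 of 7 when the mean had to reach 5 FPKM, which removes the ligands. The median of the members was 1.27 without genes that share a locus, which removes hop, Socs44A and Ptp61F. Of the other regulators, 1 of 12 was higher without genes that share a locus, and 1 of 16 with a mean of at least 5 FPKM. With no filter 6 of 15 targets were higher. Among all genes, 1462 of 11709 were higher and 305 lower with no filter, against 379 and 180 of 8437 in the main setting. With a mean of at least 5 FPKM 128 of 6540 were higher. Of 8437 genes, 182 were higher with 1 FPKM added and 625 with a threshold of 1.0. Without shared loci 248 of 5006 were higher and 118 lower. Centring on genes of similar level was added after the values were seen. A value was counted as moved when it changed by more than 1.5 times.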
